A study of Homo sapiens with 6 samples.

Results

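Expression of 10 genes for secreted matrix glycoproteins was followed in human epithelial cells given a compound that takes microtubules apart for 6 hours. The genes were FN1, THBS1, THBS2, TNC, FBN1, FBN2, SPARC, LAMB1, LAMC1 and TGFBI. The genes were chosen by name, and each symbol matched 1 of the 38900 Ensembl gene IDs in the table. Sequencing covered 3 libraries from cells given 100 nM combretastatin A4 (CA4), a small molecule that binds tubulin and depolymerizes microtubules, and 3 from cells given the solvent, 0.1% DMSO. The cells were hTERT RPE1, a line from human retinal pigment epithelium immortalised with telomerase. In both groups the cells had been quiescent, at full confluency for 5 days, and took up fresh medium together with the compound or solvent. Libraries carry the numbers 1 to 3 in each group, and nothing in the labels tells whether they were grown as separate cultures, so p-values measure only the spread between these libraries, which may be technical. Values after ± are SDs, and n = 3 libraries in each group throughout.

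The extracellular matrix is a network of secreted proteins that cells assemble around themselves and grip through integrins and syndecans. Fibronectin dimers are stretched into fibrils at the cell surface by integrins linked to contractile actin, fibrillins form microfibrils that hold latent TGF-beta, and laminin trimers build the basement membrane on which epithelia such as the retinal pigment epithelium rest. Thrombospondins, tenascin C, SPARC and TGFBI are matricellular or adhesive proteins that bind these networks and alter how cells attach to them.

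The 250 bases before the RefSeq start of FN1 and of both thrombospondin genes are shown first, because FN1 was the most read gene and THBS1 and THBS2 had the highest and the lowest estimate of the 10. The sequences are from RefSeq on GRCh38.p14, 5′ to 3′ on the strand of the gene, at chr2:215436069-215436318 (minus), chr15:39580829-39581078 (plus) and chr6:169253847-169254096 (minus). Capitals mark matches on either strand to the cAMP response element TGACGTCA, the CCAAT box, the TEAD core motif GGAATG or the TATA element, searched as TATAA.
FN1: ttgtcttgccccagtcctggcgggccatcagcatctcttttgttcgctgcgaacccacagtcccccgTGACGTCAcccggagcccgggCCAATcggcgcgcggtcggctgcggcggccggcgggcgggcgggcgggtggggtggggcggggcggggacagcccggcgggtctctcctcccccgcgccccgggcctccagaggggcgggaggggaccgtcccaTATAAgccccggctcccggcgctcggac
THBS1: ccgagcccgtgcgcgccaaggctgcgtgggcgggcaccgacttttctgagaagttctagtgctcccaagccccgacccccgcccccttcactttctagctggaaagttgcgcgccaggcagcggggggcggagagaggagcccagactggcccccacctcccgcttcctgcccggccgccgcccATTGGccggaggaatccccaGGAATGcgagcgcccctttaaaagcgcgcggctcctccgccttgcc
THBS2: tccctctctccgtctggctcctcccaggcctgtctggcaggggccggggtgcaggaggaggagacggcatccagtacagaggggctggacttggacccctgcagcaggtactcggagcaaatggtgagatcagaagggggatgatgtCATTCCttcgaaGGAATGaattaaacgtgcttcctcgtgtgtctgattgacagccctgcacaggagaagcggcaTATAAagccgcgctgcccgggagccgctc
In FN1 the cAMP response element, to which CREB and ATF factors bind, ends 176 bases before the start, the CCAAT box 158 and the TATA element 24 bases before it. THBS1 held a CCAAT box on the opposite strand and the TEAD core, which ends 41 bases before the start. THBS2 held the TEAD core on both strands and the TATA element.

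All 10 genes had an entry, and 7 motifs were searched on both strands. TGACGTCA was in 1 of the 10 windows and in 1.65% of all 35116 windows of that length. GGAATG was in 4 of 10 and 11.9% of all, the CCAAT box in 3 of 10 and 32% of all, and TATAA in 3 of 10 and 18.9% of all. The GC box GGGCGG of Sp1 factors, left in lower case, was in 7 of 10 and 42.6% of all. The AP-1 site TGANTCA and the CArG box of SRF were in 0 of 10, and in 6.57% and 1.16% of all windows. A match describes the letters only and shows no binding.

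By limma, 0 of the 10 genes passed the threshold (adjusted p under 0.05), which 4.94% of the 13928 genes tested did. THBS1 was the 1 gene with an unadjusted p under 0.05, a value reached by 23% of tested genes. Which gene this was depended on the scaling. With libraries scaled to equal totals, THBS2 and LAMB1 were under it (limma unadjusted p of 0.0323 and 0.00943) and THBS1 was not (0.0618). With the replicate number as a block limma passed 4 (background 17.2%), though no label says that equal numbers mark pairs. On the recovered reads edgeR passed 0 of 10 (background 4.62%), with 3 under an unadjusted 0.05 (background 22.7%). DESeq2 passed 2, FN1 and THBS1, with adjusted p of 0.0398 and 0.0423 (background 12.3% of the 13105 genes it gave an adjusted p), and had 3 under an unadjusted 0.05 (background 22.6%). FN1 was the 1 gene whose normalized counts were all higher in CA4 than in DMSO, which 14.3% of tested genes were, and 0 of 10 were all lower, against 13.4%. Estimates were above 0 for 6 of the 10, against 48.9% of tested genes. Their median was 0.053 on the log2 scale, beside -0.0082 over all genes tested.

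Libraries held 19524936 to 22538004 recovered reads. After the authors' scaling a DMSO library summed to 20557461 ± 241239 normalized counts and a CA4 library to 22055163 ± 369437, so a gene at equal normalized counts takes a smaller share of a CA4 library. The 13 markers of retinal pigment epithelium summed to 24193 to 26621 normalized counts in DMSO and 27033 to 32206 in CA4, nearly all of it the keratins KRT8 and KRT18, and 6 of the 13 had the higher mean in CA4. Both lineage transcription factors had the lower mean in CA4, MITF with 620, 1085 and 951 in DMSO against 322, 647 and 402 (limma adjusted p = 0.1) and OTX2 with 423, 630 and 547 against 226, 255 and 251 (limma adjusted p = 0.0158). DCT and TTR were at 0 in all 6 libraries, and RLBP1, TYR and TYRP1 at or below 5.7. Sums of the 4 endothelial markers were 1483, 1272 and 977 in DMSO replicates 1 to 3 and 1658, 1372 and 3286 in CA4, where replicate 3 stood apart, and none of the 4 was at 0. The 4 leukocyte markers summed to 738 to 940 in DMSO and 541 to 747 in CA4, nearly all of it CD68. CD3E was at 0, and PTPRC and LYZ, at or below 32.3, had the higher mean in CA4. The 3 neuron markers summed to 66.6 to 98.8 and 95.9 to 139, and 2 smooth muscle markers to 11.4 to 34.8 and 32.3 to 38.1. Their part in the results was not tested. In bulk RNA, fewer cells of a type and less RNA per cell cannot be told apart.

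Per kilobase of transcript, FN1 led and THBS2 was last. In DMSO the level (RPKM, recovered reads per kilobase, scaled for the reads of the library) was 6190 ± 253 for FN1, 2238 ± 445 for SPARC, 1636 ± 204 for THBS1 and 848 ± 182 for TGFBI. RPKM was 444 ± 90.4 for FBN1, 172 ± 18.6 for LAMC1, 168 ± 14.5 for LAMB1 and 39.6 ± 6.53 for TNC. FBN2 at 3.49 ± 0.934 RPKM and THBS2 at 0.976 ± 0.383 RPKM were far below their paralogs. SPARC and THBS1 overlapped in both groups, and LAMC1 and LAMB1 in DMSO, while other neighbours in this order were separate in each group. The order of the means was the same in CA4, where LAMB1, at 134 ± 9.78 RPKM, lay clear of LAMC1, at 183 ± 17.1 RPKM.

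**Figure D1:**
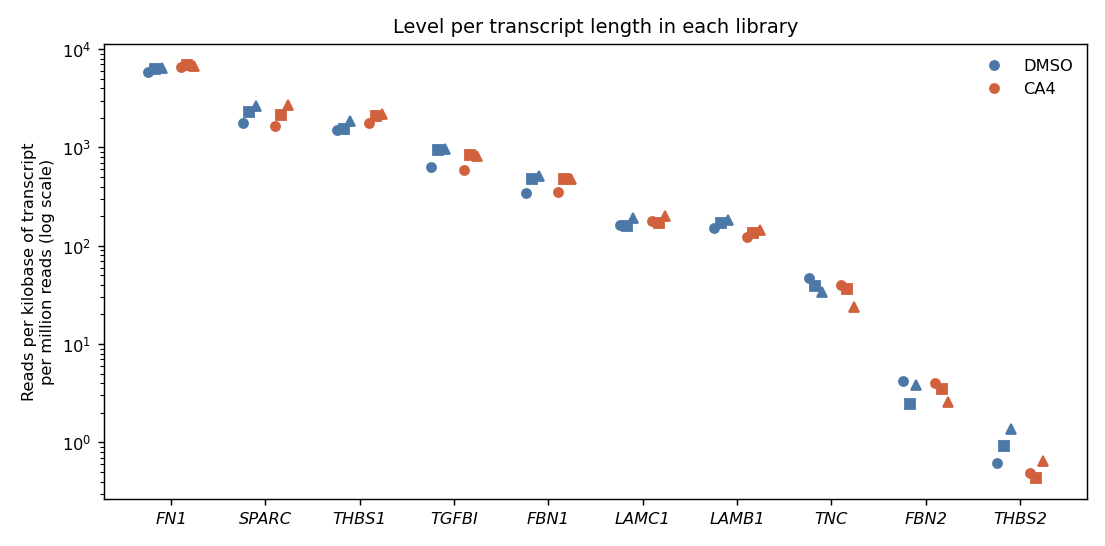
Level of each gene in each library, in reads per kilobase of transcript scaled for library size, on a log axis, with genes ordered by their DMSO mean. Circles, squares and triangles are replicates 1, 2 and 3, blue for DMSO and orange for CA4. FN1 lies at 5909 to 6950 in the 6 libraries and THBS2 at 0.432 to 1.38.

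Fibronectin is the main fibril-forming glycoprotein of the matrix made by cultured cells. FN1 (ENSG00000115414) lies on the minus strand at chr2:215360440-215436172 in GRCh38, the build of all gene positions here, and was the gene with the most reads in every library. The DMSO libraries 1 to 3 gave 951029, 1011818 and 1052981 normalized counts, and the CA4 libraries gave 1142398, 1202496 and 1208191. The lowest CA4 library lay above the highest DMSO library. The limma estimate was 0.24 on the log2 scale (SE 0.12, 95% interval -0.053 to 0.53, adjusted p = 0.307). As a share of its library FN1 took 4.67%, 4.95% and 5.05% of reads under DMSO and 5.24%, 5.49% and 5.38% under CA4. These shares did not overlap either, which 8.87% of tested genes showed with CA4 above. The mean share was 0.481 percentage points higher with CA4 (two-sided exact permutation p = 0.1, and 3 libraries against 3 allow none smaller). Scaled to equal totals, FN1 had an estimate of 0.14 (limma adjusted p = 0.507, where 5.76% of genes passed).

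C6orf62 (r = 0.999), ZNF761 (r = 0.995) and LMOD1 (r = 0.993) had the patterns most like FN1 over the 6 libraries, by Pearson's r of log2(normalized count + 1). This is a description over 6 points that share their libraries, and 306 genes had an r above 0.9. LMOD1, leiomodin 1, an actin filament nucleator of smooth muscle, had 4813, 5839 and 6222 normalized counts under DMSO and 8487, 10835 and 10810 under CA4. Since the groups of FN1 do not overlap, genes chosen for likeness to it differ between the groups by that choice, and no test of them is given.

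Thrombospondin 1 is a secreted trimer that binds CD47, CD36 and integrins and can activate latent TGF-beta. THBS1 (ENSG00000137801, chr15:39581079-39599466, plus strand) ranked second in reads in each library. With DMSO it stood at 239086, 242877 and 303022 normalized counts in libraries 1 to 3, and with CA4 at 298522, 353095 and 381877. Groups overlapped by 1 library, since CA4 replicate 1 lay below DMSO replicate 3. THBS1 had the highest estimate of the 10, 0.40 on the log2 scale (SE 0.14, 95% interval 0.061 to 0.74), and missed the threshold (limma adjusted p = 0.158). Its share of reads was 1.27% ± 0.159 with DMSO and 1.56% ± 0.17 with CA4 (two-sided exact permutation p = 0.2).

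THBS2 (ENSG00000186340, chr6:169215780-169254044, minus strand), a paralog that also forms trimers, was barely read. Its normalized counts were 73, 110 and 167 with DMSO and 62, 55 and 85 with CA4. Here too 1 library made the groups overlap, CA4 replicate 3 lying above DMSO replicate 1. The estimate for THBS2 was -0.74 on the log2 scale (SE 0.33, 95% interval -1.50 to 0.030, limma adjusted p = 0.236). Without single libraries it ran from -1.03 (DMSO replicate 1 left out) to -0.44 (DMSO replicate 3 left out), and it was -0.84 at equal totals.

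A ratio of 2 genes within a library does not depend on how libraries are scaled. The ratios of the thrombospondin, laminin and fibrillin pairs were chosen after the values were seen, the first joining the highest and the lowest estimate, so they are a description with no test. THBS1 over THBS2 was 3257, 2202 and 1813 in the DMSO libraries and 4826, 6422 and 4508 in the CA4 libraries. The CA4 ratios all lay above, with a log2 difference of 1.14. How many other gene pairs separate the groups in this way was not worked out.

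Tenascin C is a large glycoprotein of remodelling matrix that can weaken adhesion to fibronectin. TNC (ENSG00000041982, chr9:115019578-115118257, minus strand) was read at 7236, 6074 and 5327 normalized counts under DMSO and at 6589, 6100 and 4089 under CA4. The groups overlapped, and CA4 replicate 3 was the lowest of the 6. For TNC the log2 estimate was -0.17 (SE 0.19, 95% interval -0.62 to 0.28, limma adjusted p = 0.648), which turned to 0.041 when CA4 replicate 3 was left out.

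LAMB1 and LAMC1 encode the beta 1 and gamma 1 chains, which join an alpha chain in the same laminin trimers. LAMB1 (ENSG00000091136, chr7:107923799-108003255, minus strand) gave 17810, 19994 and 21633 normalized counts with DMSO and 15479, 16773 and 18490 with CA4. CA4 libraries lay toward the low end, and CA4 replicate 3 alone exceeded DMSO replicate 1. For LAMB1 the log2 estimate was -0.23 (SE 0.10, 95% interval -0.47 to 0.013, limma adjusted p = 0.242). LAMB1 took 0.0874%, 0.0977% and 0.104% of reads under DMSO and 0.0711%, 0.0766% and 0.0823% under CA4. By share the groups did not overlap, as in 22.5% of tested genes with CA4 below (two-sided exact permutation p = 0.1, the smallest possible). At equal totals LAMB1 stood at -0.33 (limma adjusted p = 0.0859), and with quantile normalization at -0.36.

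LAMC1 (ENSG00000135862, chr1:183023460-183145592, plus strand) gave 26347, 25562 and 31715 normalized counts with DMSO and 30408, 29359 and 35877 with CA4. DMSO replicate 3 lay above CA4 replicates 1 and 2, so the groups overlapped. LAMC1 had a log2 estimate of 0.19 (SE 0.12, 95% interval -0.078 to 0.47, limma adjusted p = 0.373). Without single libraries it ran from 0.11 (CA4 replicate 3 left out) to 0.29 (DMSO replicate 3 left out). It was 0.093 at equal totals and 0.048 with quantile normalization.

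Estimates of these laminin chains had opposite signs. LAMB1 over LAMC1 was 0.676, 0.782 and 0.682 in DMSO replicates 1 to 3, against 0.509, 0.571 and 0.515 in CA4. It was lower in 3 of 3 CA4 libraries than in any DMSO library, with a log2 difference of -0.42. Without each library in turn that difference ran from -0.47 to -0.35. This pair too was chosen after its values were seen, with no share of other separating pairs to set beside it.

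**Figure D2:**
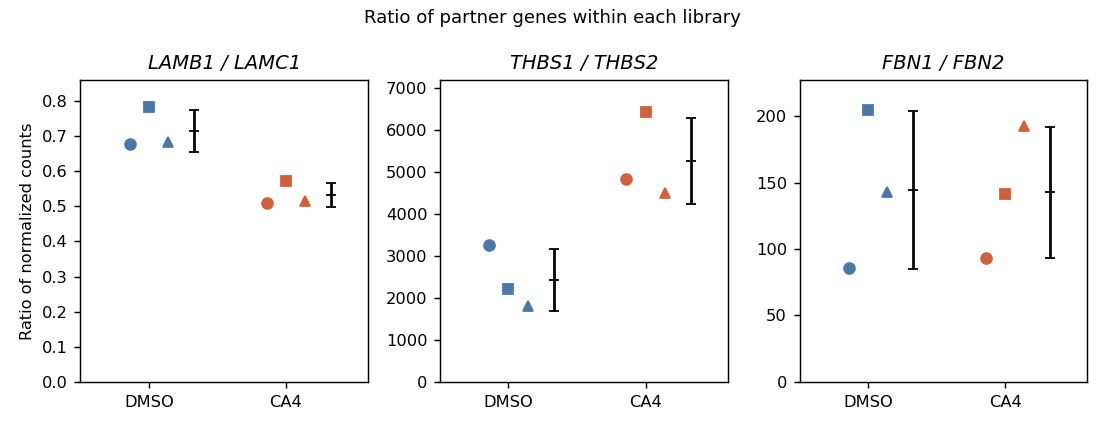
Ratio of normalized counts of LAMB1 to LAMC1, THBS1 to THBS2 and FBN1 to FBN2 within each library, on axes from 0. Circles, squares and triangles are replicates 1, 2 and 3, blue for DMSO and orange for CA4, and black bars are the mean with 1 SD of 3 libraries. LAMB1 to LAMC1 is 0.713 in DMSO and 0.532 in CA4 on average, with no overlap, while the fibrillin ratios overlap.

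Fibrillins are the rods of the microfibrils that scaffold elastic fibres. FBN1 (ENSG00000166147, chr15:48408306-48645849, minus strand) was read at 82140, 113568 and 126630 normalized counts under DMSO and at 90176, 121754 and 124764 under CA4. The spread within a group exceeded the difference between them, with replicate 1 the lowest in each group. For FBN1 the log2 estimate was 0.071 (SE 0.19, 95% interval -0.38 to 0.52, limma adjusted p = 0.868). It was -0.11 without DMSO replicate 1 and -0.013 without CA4 replicate 3.

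FBN2 (ENSG00000138829, chr5:128257909-128659185, minus strand), the fibrillin best known from development, had normalized counts of 956, 555 and 887 under DMSO and 964, 861 and 648 under CA4. The groups were interleaved. FBN2 had a log2 estimate of 0.063 (SE 0.23, 95% interval -0.48 to 0.60, limma adjusted p = 0.906), which was -0.18 without DMSO replicate 2 and -0.060 without CA4 replicate 1. FBN1 over FBN2 was 85.9, 205 and 143 with DMSO and 93.6, 141 and 193 with CA4, and the groups overlapped.

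SPARC, also called osteonectin, is a collagen-binding matricellular protein. The gene (ENSG00000113140, chr5:151661096-151687165, minus strand) gave 132948, 174727 and 203873 normalized counts with DMSO and 133346, 171863 and 225756 with CA4. Replicate 1 was the lowest and replicate 3 the highest in each group, and the groups overlapped. SPARC had a log2 estimate of 0.043 (SE 0.22, 95% interval -0.48 to 0.56, limma adjusted p = 0.936). It was -0.13 without DMSO replicate 1 and -0.15 without CA4 replicate 3.

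TGFBI is a secreted integrin ligand induced by TGF-beta and abundant in the cornea. The gene (ENSG00000120708, chr5:136028895-136063818, plus strand) gave 36488, 53995 and 56309 normalized counts with DMSO and 35980, 51933 and 51134 with CA4. As for FBN1 and SPARC, replicate 1 was the low library of each group and the groups overlapped. TGFBI had a log2 estimate of -0.072 (SE 0.20, 95% interval -0.55 to 0.40, limma adjusted p = 0.875), which was 0.012, 0.043 and 0.10 without DMSO replicate 2, DMSO replicate 3 and CA4 replicate 1.

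**Figure D3:**
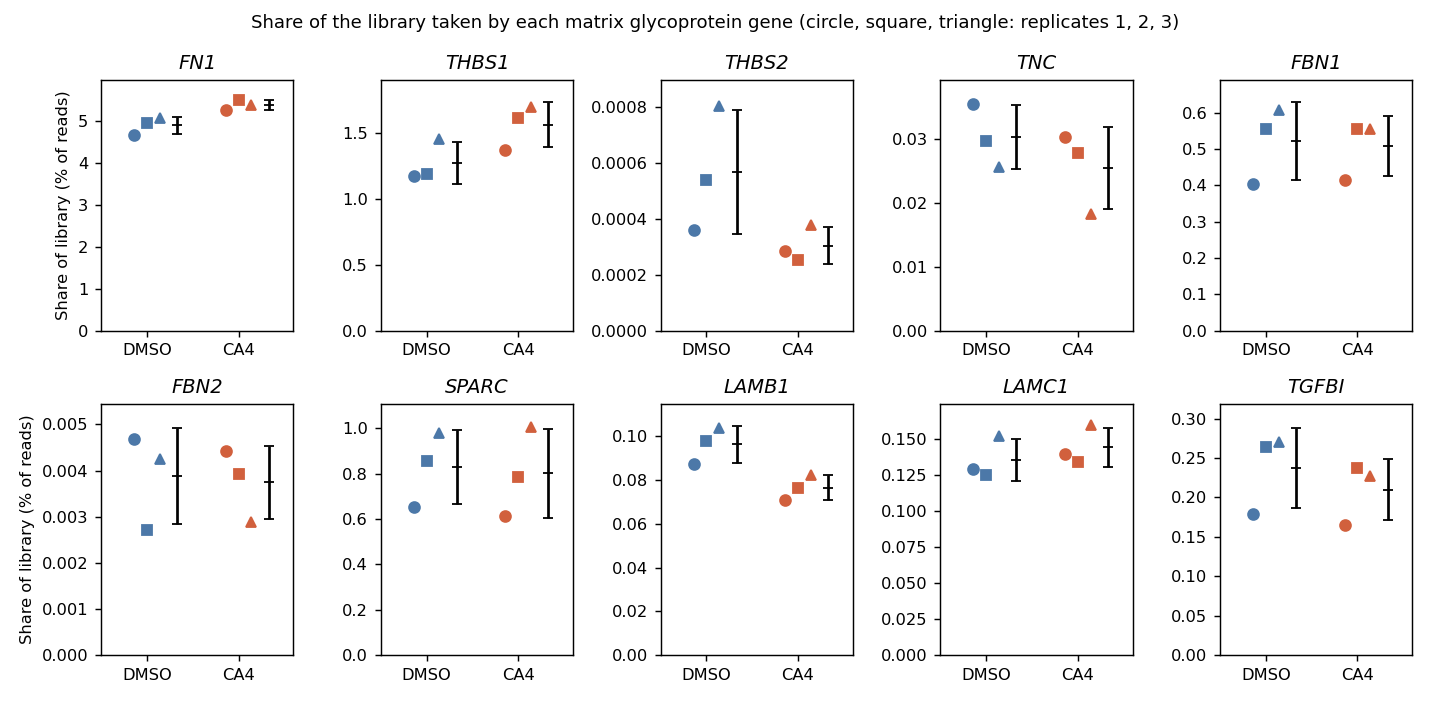
Share of the library, in percent of reads, taken by each of the 10 genes in each library, each panel with its own axis from 0. Circles, squares and triangles are replicates 1, 2 and 3, blue for DMSO and orange for CA4, and black bars are the mean with 1 SD of 3 libraries. The shares of FN1 lie higher and those of LAMB1 lower in 3 of 3 CA4 libraries, and the other 8 genes overlap.

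Some exons of 5 of the 10 genes lie opposite exons of another gene, and use of strand in counting is not given, so reads of the 2 strands there cannot be told apart. In GENCODE 29 this touches 7.89% of the exon bases of SPARC (CLMAT3), 4.89% of THBS1 (FSIP1, at most 41.5 normalized counts), 1.34% of TNC (DEC1), 0.424% of FBN2 (SLC27A6) and 0.86% of LAMB1 (DLD, at most 1314 normalized counts). An antisense gene without a value here, AC037198.2, covers 4.49% of THBS1, and another, AC005046.1, covers 2.71% of LAMB1.

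Between libraries of a group, the median coefficient of variation of the 10 genes was 18.2% under DMSO and 18.2% under CA4. It was 13.3% and 12.4% over all genes tested, and 8.4% and 7.08% for the 640 genes averaging 5000 normalized counts or more, which THBS2 and FBN2 do not reach. FN1 was the steadiest of the 10, at 5.1% and 3.08%. Replicate 1 was lowest for 7 of the 10 genes under DMSO and 6 under CA4, and replicate 3 was highest for 8 and 7. These counts were not made over all tested genes, so they do not single out these 10.

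Together the 10 genes took 7.33%, 8.06% and 8.65% of the reads in the DMSO libraries and 8.05%, 8.92% and 9.13% in the CA4 libraries. The groups overlapped, with a mean difference of 0.684 percentage points (two-sided exact permutation p = 0.3). FN1, THBS1, SPARC and FBN1 made up 93.7% ± 0.283 of that sum with DMSO and 94.7% ± 0.159 with CA4. The other 9 genes without FN1 took 3.13% ± 0.467 and 3.33% ± 0.479 of the reads (two-sided exact permutation p = 0.7).

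Signs of the small differences depended on the scaling. With the authors' normalization 6 of the 10 estimates were above 0, and with equal totals 3 were, FN1, THBS1 and LAMC1. FBN1, FBN2 and SPARC went from 0.071, 0.063 and 0.043 to -0.030, -0.038 and -0.059. Equal totals moved the median over all genes from -0.0082 to -0.11 and that of the 10 genes from 0.053 to -0.049.

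**Figure D4:**
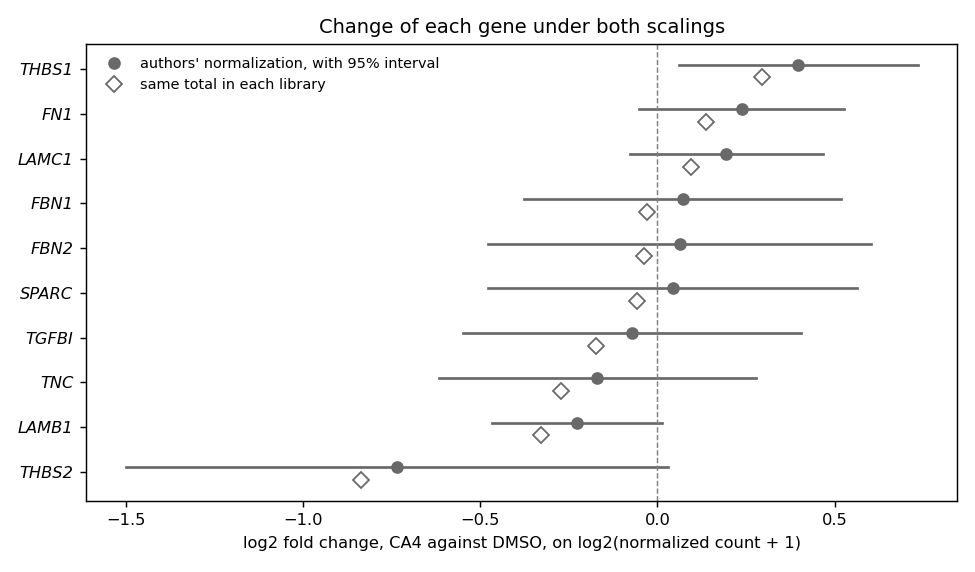
Log2 fold change of CA4 against DMSO for each gene. Filled circles with lines are the limma estimate and its 95% interval with the authors' normalization, and open diamonds the estimate with equal library totals. The interval of THBS1 alone lies above 0, from 0.061 to 0.74, before adjustment for the number of genes tested.

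Partner genes of these glycoproteins were counted in 7 lists with 100 genes in all, of which 82 were read enough to be tested. DAG1, a laminin receptor, is counted both among the basement membrane partners and among the receptors. Of the 82, 4 rose in CA4 and 0 fell by limma, where 2.97% of all tested genes rose and 1.97% fell, and 16 had an unadjusted p under 0.05, as had 23% of all tested genes. On the recovered reads edgeR passed 4 of the 82, beside 4.62% of all genes, and DESeq2 10, beside 12.3%. Groups did not overlap for 15 of the 82 with CA4 above and for 2 with CA4 below, where 14.3% and 13.4% of all tested genes did so. The median estimate of the 82 was -0.0053 on the log2 scale.

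Of 9 other laminin chains 0 passed in limma and edgeR and 1 in DESeq2, with 1 under an unadjusted 0.05 in each. Over all tested genes 4.94%, 4.62% and 12.3% passed in limma, edgeR and DESeq2, and 23%, 22.7% and 22.6% were under an unadjusted 0.05. LAMB2, the most read, stood at 11279 ± 671 normalized counts with DMSO and 12091 ± 1346 with CA4. LAMA3, an alpha chain of epithelial laminins named after its values were seen, stood at 15.5, 25.2 and 9.5 with DMSO and 79.3, 37.0 and 63.5 with CA4 (limma adjusted p = 0.0615). Of 9 partners of laminin in the basement membrane 0 passed in limma, edgeR or DESeq2, with 3 under an unadjusted 0.05 in each, against these same backgrounds. The collagen IV chains were the most read of them, COL4A1 at 54825 ± 7365 with DMSO and 69507 ± 11458 with CA4 and COL4A2 at 55753 ± 2732 and 63025 ± 7277, so that COL4A1 led over the 6 libraries and COL4A2 in DMSO.

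Of 16 genes of fibrillin microfibrils and elastic fibres 0 passed in limma, edgeR or DESeq2, with 2 under an unadjusted 0.05 in each, where 4.94%, 4.62% and 12.3% of all tested genes passed and 23%, 22.7% and 22.6% were under an unadjusted 0.05. EFEMP1, a fibulin and the most read of them, stood at 47111 ± 9090 normalized counts with DMSO and 48602 ± 11046 with CA4. Other thrombospondins and tenascins passed in 0 of 2, and the SPARC family with POSTN in 0 of 5, with 0 under an unadjusted 0.05 in limma, edgeR and DESeq2, against the same backgrounds. THBS3 stood at 3099 ± 451 and 2600 ± 368 normalized counts, and FSTL1 at 48659 ± 5011 and 51699 ± 6000.

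Among 22 other matrix glycoproteins 3 rose in limma and 4 had an unadjusted p under 0.05, beside 2.97% and 23% of all tested genes. edgeR passed 3 of these 22 (background 4.62%) and DESeq2 4 (background 12.3%). CCN1, a matricellular integrin ligand, had normalized counts of 20136, 14646 and 22163 under DMSO and 41850, 35649 and 40466 under CA4, a log2 estimate of 1.07 (SE 0.16, limma adjusted p = 0.0158). SLIT2, a secreted guidance protein, averaged 83.7 ± 10.7 and 322 ± 110 normalized counts, a log2 estimate of 1.89 (SE 0.25, limma adjusted p = 0.0128). NTN4, a laminin-related netrin, averaged 2038 ± 203 and 2932 ± 351, a log2 estimate of 0.52 (SE 0.11, limma adjusted p = 0.0468, edgeR adjusted p = 0.04996). Its limma adjusted p was 0.0721 at equal totals, 0.0566 with quantile normalization and 0.0517 with scaling to the same 75th percentile. CCN1 lost its call without CA4 replicate 1 or 3 and SLIT2 without DMSO replicate 2 or 3, with limma adjusted p of up to 0.0642 and 0.0646.

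Of 20 tested receptors 1 rose in limma and 6 had an unadjusted p under 0.05, beside 2.97% and 23% of all tested genes. edgeR passed 1 of these 20 (background 4.62%) and DESeq2 5 (background 12.3%). SDC4, the syndecan that acts with integrins as a coreceptor for fibronectin, had normalized counts of 6859, 5024 and 3994 under DMSO and 11509, 10637 and 10041 under CA4. The CA4 libraries all lay above the DMSO libraries, and the log2 estimate was 1.05 (SE 0.18, limma adjusted p = 0.0227). Of the 6 fits that leave out a library, SDC4 and NTN4 kept their call in 1, that without DMSO replicate 1, and their adjusted p reached 0.0923 and 0.16. ITGA5, the alpha chain of the main fibronectin receptor and named after its values were seen, averaged 46546 ± 5985 and 63995 ± 3767 normalized counts (limma adjusted p = 0.0558).

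**Figure D5:**
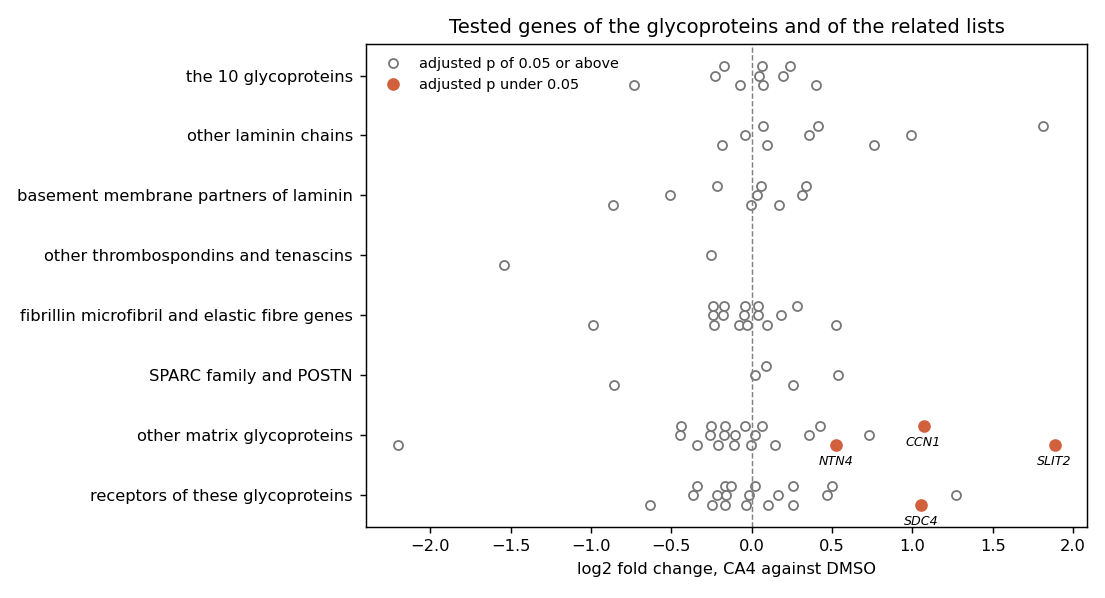
Log2 fold change of CA4 against DMSO for the 10 glycoprotein genes and for the tested genes of the 7 partner lists, 1 point per gene, spread vertically within a list for legibility. Orange points passed an adjusted p of 0.05 in limma, and they are CCN1, SLIT2, NTN4 and SDC4, all above 0. The 10 glycoprotein genes lie between -0.74 and 0.40.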

How the data were processed

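RNA was sequenced from 6 hTERT RPE1 libraries after polyA selection, and group and replicate number were taken from each library's title. The submitters' processing notes name Trim Galore 0.6.6, FastQC 0.12.1, STAR 2.7.9a, Salmon 1.8.0, DESeq2 1.44.0 and the build GRCh38, with no role or order. Annotation release and use of strand are not given in the sources used here. The deposited values are a signal, normalized counts per Ensembl ID, per the file headers, and the values show 1 divisor per library. In each library 100% of values were whole multiples of 1 step within 0.01, which gave whole reads; these may be rounded estimates.

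Symbols came from the supplied table, and positions, lengths and overlaps from GENCODE 29. At most 0.202% of the 50-base words of a member occurred in transcripts of other genes. Genes averaging 10 normalized counts or more were fitted on log2(normalized count + 1), which understates changes of low genes, with limma 3.58.1 in R 4.3.3 (treatment as the only term, variance trend, two-sided, Benjamini-Hochberg over 13928 genes, threshold 0.05). Single values were compared by two-sided exact permutation tests. Alternatives were edgeR 4.0.16 and DESeq2 1.42.0 on the recovered reads, other pseudocounts, filters, scalings and variance models, a replicate block, and omission of single libraries.

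Members and lists were chosen with earlier results of these data known. Named genes are the members, genes past the threshold in a partner list or else its most read gene, and the 3 genes most correlated with FN1. LAMA3, ITGA5, COL4A2 and the marker genes were added after their values were seen.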

Additional observations from a re-analysis of the deposited data

How the results depend on the processing

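In limma 0 of the 10 genes passed the threshold with pseudocounts of 0.1 and 5, other filters, scalings and variance models, and without each of the 6 libraries (smallest adjusted p from 0.0859 to 0.384 over these fits). With DESeq2 2 passed (FN1 and THBS1). With the replicate number as a block 4 did (FN1, THBS1 and LAMC1 higher, LAMB1 lower, adjusted p from 0.00945 to 0.0355), as did 17.2% of all genes. No label ties a number to a shared culture, so the main fit left the block out. Same-numbered libraries deviated from their group means with correlations over all tested genes of 0.202, 0.159 and 0.0588 for numbers 1, 2 and 3. These deviations had the same sign in both groups in 10, 5 and 9 of the 10 genes, a count not made over all genes. Whether the numbers mark pairs is not known, and the number of genes that passed depends on it. FN1 and THBS1 have no value under quantile normalization, because their ranks are the same in every library. Signs turned for FBN1 (-0.052 with quantile normalization, -0.030 with equal totals, -0.019 with equal totals without the 10 genes), FBN2 (-0.038 and -0.027 with these equal totals) and SPARC (-0.16, -0.059 and -0.048 in the order given for FBN1). Without each library the estimates ran from -0.30 to 0.041 in TNC, -0.11 to 0.22 in FBN1, -0.18 to 0.23 in FBN2, -0.15 to 0.23 in SPARC, -0.27 to 0.10 in TGFBI and -0.32 to 0.30 for the log2 ratio of FBN1 to FBN2. FN1 ran from 0.20 to 0.27 and THBS1 from 0.32 to 0.51. Of the partner genes 0 passed without the variance trend, 21 with the block (16 higher and 5 lower), 10 in DESeq2 and 1 to 7 without a library, against 4. Over all genes the share past the threshold was 0.74%, 17.2%, 12.3% and 0.582% to 7.14% in these fits, against 4.94%, where DESeq2's share is of the 13105 genes with an adjusted p and the others are of 13928. The cause was not tested. The summed share differed by 0.343 (without DMSO replicate 1) to 1.01 percentage points (without CA4 replicate 1), by 0.231 with FN1 left out of sum and total, and permuting within the replicate block gave an exact p of 0.25, the smallest that 3 pairs allow, with CA4 higher in 3 of 3. The intervals of SPARC and the fibrillins, from 3 libraries a group, are wider than the differences seen.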
